A study of Mus musculus with 4 samples.

Results

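The genes described here are insulin-like growth factor 1 (Igf1), its receptor Igf1r and the 6 IGF binding proteins Igfbp2, Igfbp3, Igfbp4, Igfbp5, Igfbp6 and Igfbp7. They were taken by name as 8 of the 31053 genes in the count matrices. The study profiled cells of the ventromedial prefrontal cortex (vmPFC) by droplet single-cell RNA sequencing, with retrograde viruses that mark neurons by the place their axons reach. All animals were male C57BL/6 mice, 8 weeks old in the labels (the methods give this as the age at injection, and the mice were killed some weeks later), and all carried barcoded rAAV2-retro virus expressing EGFP from a CAG promoter, injected into 5 targets: agranular insular cortex, dorsomedial striatum, mediodorsal thalamus, basolateral amygdala and lateral hypothalamus. There were 3 unsorted libraries, each from 1 mouse, and 1 sorted library, in which EGFP-positive cells of 3 mice were pooled. No group without virus was analysed here, so virus and surgery are shared by every library.

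Igf1 is a secreted growth factor that acts through Igf1r, a receptor tyrosine kinase that signals by way of insulin receptor substrates, PI3 kinase and Akt. Most extracellular IGF is carried by high-affinity binding proteins, which hold it away from the receptor or release it when they are cleaved. Igfbp2 to Igfbp6 belong to that high-affinity family, Igfbp6 prefers Igf2 as its ligand, and Igfbp7 binds IGF weakly and is known as a vascular matrix protein. In cortex the family is known for its restricted expression, with single members marking particular neurons, glia or vessel cells.

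The genes lie on 6 chromosomes of the mouse genome (GENCODE vM21 gene models, GRCm38, the sequence behind mm10). Igfbp2 (ENSMUSG00000039323, chr1:72824503-72852474, plus strand) and Igfbp5 (ENSMUSG00000026185, chr1:72857932-72874884, minus strand) face each other across a gap of 5.46 kb. Igfbp7 (ENSMUSG00000036256) spans chr5:77349240-77408041 on the minus strand and Igf1r (ENSMUSG00000005533) spans chr7:67952827-68233668 on the plus strand. Igf1 (ENSMUSG00000020053) is at chr10:87858265-87937042, Igfbp3 (ENSMUSG00000020427) at chr11:7206086-7213923, Igfbp4 (ENSMUSG00000017493) at chr11:99041244-99054392 and Igfbp6 (ENSMUSG00000023046) at chr15:102144362-102149511. RefSeq promoter windows of 300 bases (250 before the start and 50 after, GRCm38.p6) were matched by symbol for all 8 genes. Those of Igf1r and Igfbp7 are shown because these were the members called higher in endothelial cells than in excitatory neurons. Capitals mark GGGCGG, the GC box bound by Sp1-type factors, on either strand, and both windows read 5′ to 3′ along the gene (Igf1r at chr7:67952007-67952306, plus strand, and Igfbp7 at chr5:77407996-77408295, minus strand).
Igf1r: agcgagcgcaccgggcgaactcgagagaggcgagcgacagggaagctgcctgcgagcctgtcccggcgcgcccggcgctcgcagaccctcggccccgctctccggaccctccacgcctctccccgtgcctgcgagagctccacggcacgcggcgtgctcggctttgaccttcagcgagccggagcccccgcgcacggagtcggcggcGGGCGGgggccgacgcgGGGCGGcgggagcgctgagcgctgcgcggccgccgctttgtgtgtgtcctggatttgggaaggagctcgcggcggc
Igfbp7: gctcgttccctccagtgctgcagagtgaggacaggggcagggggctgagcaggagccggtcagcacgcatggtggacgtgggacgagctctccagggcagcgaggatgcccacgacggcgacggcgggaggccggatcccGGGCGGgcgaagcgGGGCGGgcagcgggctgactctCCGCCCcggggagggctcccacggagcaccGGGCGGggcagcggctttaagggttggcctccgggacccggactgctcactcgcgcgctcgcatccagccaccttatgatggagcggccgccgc

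The GC box occurred 2 times in the Igf1r window and 4 times in the Igfbp7 window, and 35.7% of the 32851 promoter windows in the table held at least 1. Both windows were rich in CpG pairs, with 48 for Igf1r and 33 for Igfbp7 against a median of 7 over all windows. Windows of the other members held from 6 (Igf1) to 37 (Igfbp3) CpG pairs. An Igfbp2 window held 3 GC boxes, and the remaining windows of the members held none. TATAAA was found in neither, but once each in the windows of Igfbp4 and Igfbp6 (13.6% of all windows). GGAAGT, an ETS-type motif searched in the same way, was in none of the members' windows and in 23.8% of all. The RefSeq start of Igf1r lies upstream of the gene start given above, which is from GENCODE. These matches describe sequence only.

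The libraries held 8040, 7443, 7243 (unsorted) and 2075 (sorted) cells, with a median of 5383 to 5660 transcript counts (unique molecular identifiers, UMIs) per unsorted cell and 29262 per sorted cell. The authors' table names 9368 excitatory neurons in 7 subtypes, of which 7765 were unsorted. Other cells were classed by marker UMIs: endothelial cells by Cldn5 and Flt1, pericytes by Kcnj8 and Abcc9, inhibitory cells by Gad1 and Gad2, and so on. This gave 1638 endothelial cells, 275 pericytes and 1211 inhibitory cells in the unsorted libraries, but 0, 0 and 5 in the sorted library. Marker lists that the rules did not use were each highest in the class they name, in all 11 classes including excitatory neurons. Libraries shared 5 to 30 cell barcodes per pair. Levels are CPM, a gene's share of all UMIs summed over a cell group, scaled to 1e6, given as mean ± SD of the unsorted libraries (n = 3). UMI tags are not divided by gene length, so levels are compared between cell groups and not between genes.

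**Figure D1:**
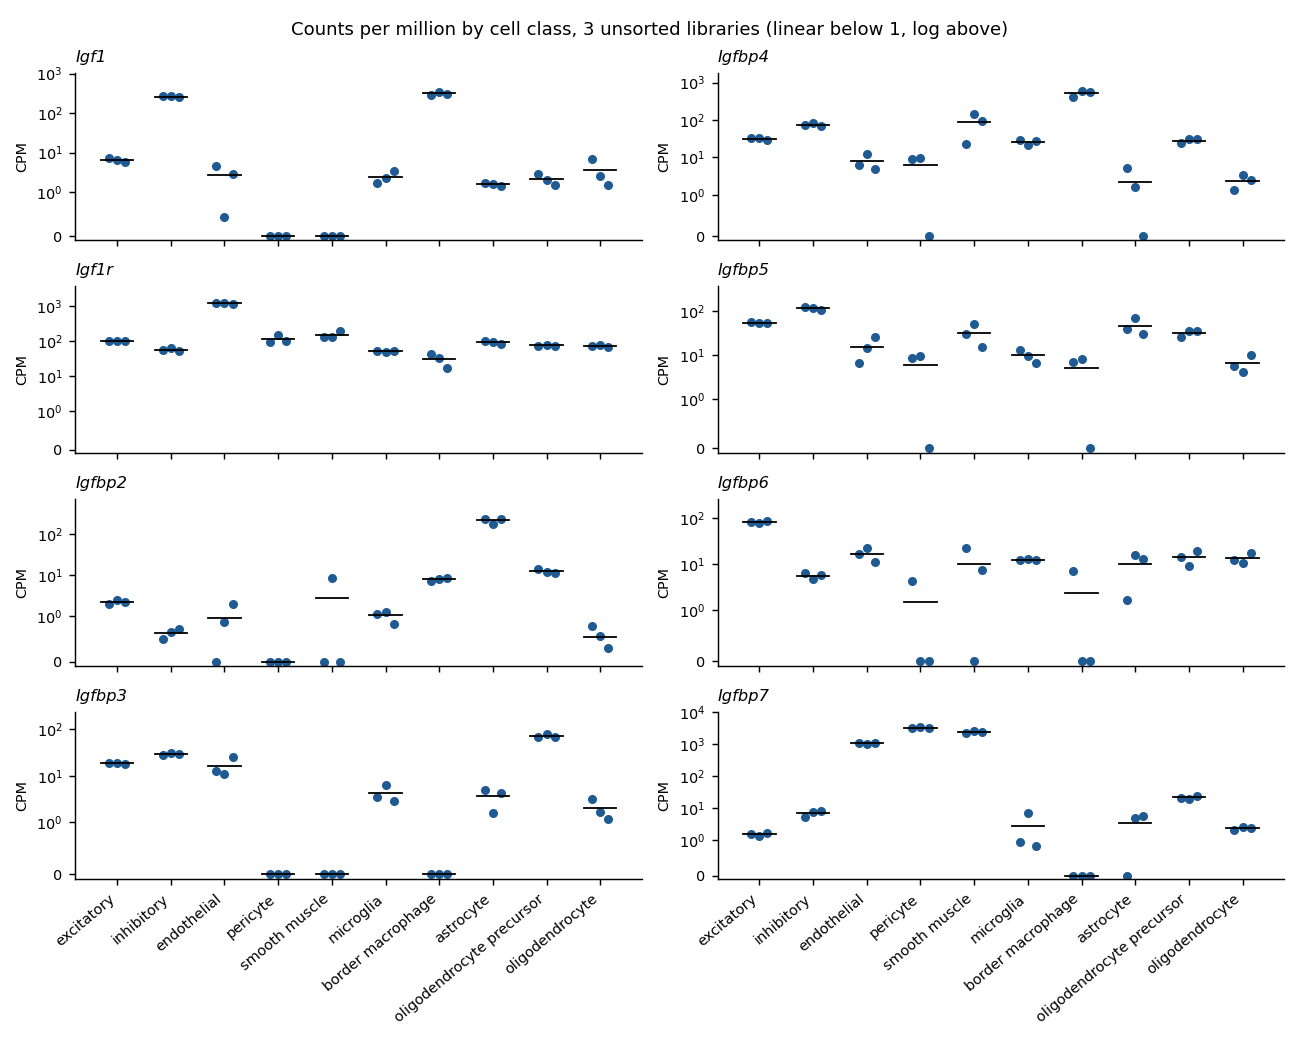
CPM of each gene (y axis, linear below 1 and logarithmic above) in 10 cell classes (x axis), with points for the 3 unsorted libraries and bars for their means. Igfbp7 stands above 1000 CPM in pericytes, smooth muscle and endothelial cells, and Igf1r stands above 1000 CPM in endothelial cells alone among these classes.

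Endothelial cells had more Igf1r and Igfbp7 than excitatory neurons, and less Igf1, Igfbp4, Igfbp5 and Igfbp6. By edgeR's quasi-likelihood test with the library as a block, 2 of the 8 members were higher and 4 lower. A call needed a log2 fold change of 0.5 or more in either direction together with an adjusted p (Benjamini-Hochberg, over all genes) below 0.05. Of all 15436 genes tested, 30.4% were called higher and 34.5% lower in that comparison, so calls in both directions were common among genes at large. Pericytes had 1 member higher and 5 lower than excitatory neurons, beside 19.1% and 29.9% of all genes. Inhibitory cells had 5 members higher and 3 lower, beside 19% and 20% of all genes. Between pericytes and endothelial cells, 6 members were tested, with 1 higher in pericytes and 3 lower, where 16% and 24.6% of all genes were called. Subtype and excitatory labels came from the authors' clustering, which could use the member genes, so levels over subtypes carry no test. The other classes were chosen on genes that are not members.

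**Figure D2:**
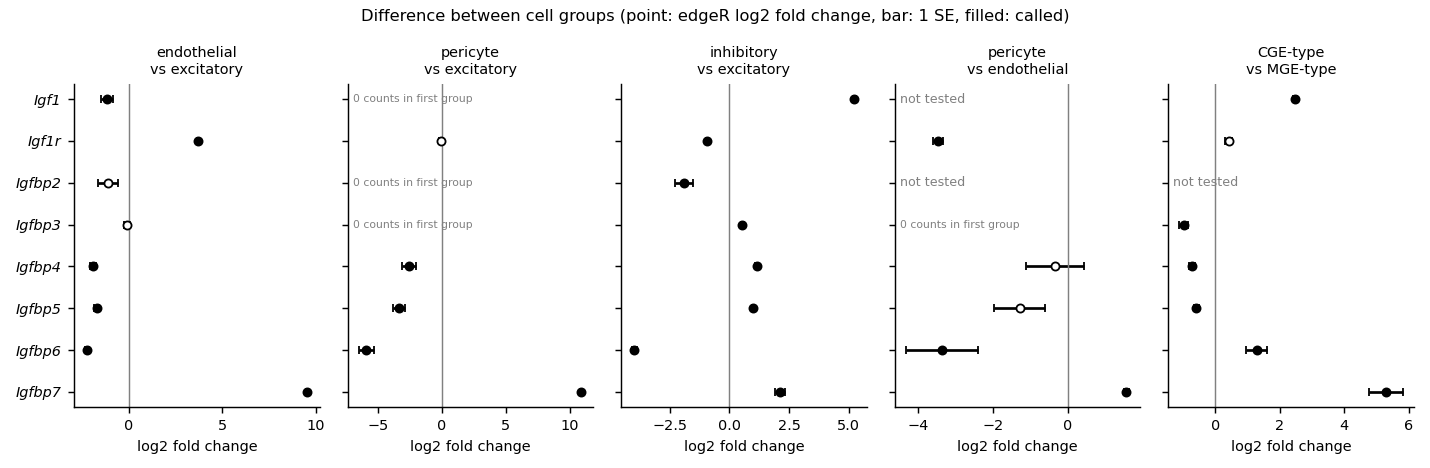
The edgeR log2 fold change of each gene (x axis) in 5 comparisons of cell groups over the 3 unsorted libraries, with bars of 1 SE, filled points for called genes, open points for others, and words where the first group had 0 counts or no test was run. Igfbp7 has the largest differences drawn, 9.56 in endothelial cells and 10.86 in pericytes.

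Igf1, the ligand, was concentrated in inhibitory cells and border macrophages. Inhibitory cells had 273, 265 and 249 CPM in the 3 unsorted libraries and excitatory neurons had 7.13, 6.69 and 5.90 CPM. The groups did not overlap, and the difference was 37.6-fold (log2 fold change 5.23, SE 0.0518, edgeR adjusted p = 5.63e-38). Border macrophages, the resident macrophages of meninges and vessels, had 289, 341 and 311 CPM from 77 cells, whereas microglia had 2.45 ± 0.819 CPM (n = 3). Igf1 had 0 UMIs in pericytes and in smooth muscle cells, which allows up to 4.76 and 7.87 CPM at 3 counts over the group. Endothelial cells held 20 Igf1 UMIs in all, and their log2 fold change of -1.18 against excitatory neurons (SE 0.316, edgeR adjusted p = 0.000631) lost its call without unsorted replicate 2 (-0.70, adjusted p = 0.0518). At their floor pericytes were at least 1.38-fold below excitatory neurons (edgeR adjusted p = 0.0139), a call lost by DESeq2 (adjusted p = 0.0609) and without any 1 of the 3 libraries (adjusted p = 0.0572 to 0.0927).

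Within inhibitory cells, Igf1 was higher in those with more Adarb2 than Lhx6 UMIs (CGE-type, derived from the caudal ganglionic eminence) than in those with more Lhx6 (MGE-type, from the medial eminence). CGE-type cells had 444, 415 and 386 CPM and MGE-type cells 81.8, 62.7 and 79.8 CPM, a 5.55-fold difference (log2 fold change 2.47, SE 0.0709, edgeR adjusted p = 1.45e-20). Cells with at least 5 Vip UMIs had 476 ± 30.6 CPM and cells with at least 10 Sst UMIs had 84.2 ± 10.6 CPM (n = 3), and their ranges did not overlap. At least 1 Igf1 UMI was read in 95.2% ± 1.22 of Vip cells (n = 3), and in 55.1% ± 2.90 when each cell was thinned to 2000 UMIs. In CGE-type cells the mean was 5.27 Igf1 UMIs per cell and the maximum 41.

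Igf1 also differed among excitatory subtypes, at a much lower level. L6-Syt6 neurons, which are corticothalamic, had 11.8, 10.9 and 9.84 CPM in the unsorted libraries and 11.4 CPM in the sorted library. No other subtype passed 3.91 CPM in any unsorted library, and its mean there ranged from 0.161 CPM in L2/3-Calb1 to 3.17 CPM in L5-Htr2c. A UMI was seen in 18.3% ± 0.327 of L6-Syt6 neurons (n = 3, median depth 23076 UMIs) and in 0.788% ± 0.321 of L5-S100b neurons (median depth 25562 UMIs). Thinned to 2000 UMIs the share in L6-Syt6 was 2.08% ± 0.358. Marker genes of inhibitory cells summed to 3.30 to 4.54 CPM in unsorted L6-Syt6 neurons and to 0.633 CPM in the sorted ones, where Igf1 lay within its unsorted range. In unsorted L2/3-Rorb neurons the same markers summed to 7.43 to 25.3 CPM while Igf1 was 2.19 ± 0.747 CPM. In the sorted L2/3-Rorb neurons the markers summed to 0.545 CPM and Igf1 had 0 UMIs. The part of stray inhibitory RNA in these Igf1 levels was not tested.

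Igf1r, the receptor, was detected in every class and stood far above the rest in endothelial cells. Endothelial cells had 1258, 1210 and 1198 CPM and excitatory neurons 101, 103 and 99.9 CPM. The ranges did not overlap, and the difference was 12.8-fold (log2 fold change 3.68, SE 0.0391, edgeR adjusted p = 2.98e-73). Pericytes, which sit on the same capillaries, had 92.8, 148 and 98.0 CPM. That was 11.1-fold below endothelial cells (log2 fold change -3.47, SE 0.134, edgeR adjusted p = 2.91e-142) and overlapped excitatory neurons (log2 fold change -0.06, with 2 SE on either side reaching from -0.42 to 0.30). Endothelial markers summed to 57.4 to 124 CPM in pericytes, 0.971% of their level in endothelial cells. Igf1r was read in 94.4% ± 0.695 of endothelial cells at a median depth of 2867 UMIs, and in 82.8% ± 0.264 of excitatory neurons at 22251 UMIs (n = 3). Thinned to 2000 UMIs, the shares were 89.0% ± 0.808 and 18.5% ± 0.354.

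Among excitatory subtypes Igf1r spanned 1.85-fold. Its subtype means ran from 66.5 ± 7.41 CPM in L2/3-Rorb to 123 ± 12.6 CPM in L5-Htr2c, and L5-Htr2c overlapped L6-Syt6 (115 ± 1.89 CPM). L6-Syt6 and L6-Npy (99.8 ± 3.64 CPM) did not overlap, and neither did L2/3-Calb1 (91.3 ± 4.89 CPM) and L5-Bcl6 (73.9 ± 2.89 CPM). L5-Bcl6, L5-S100b and L2/3-Rorb overlapped from neighbour to neighbour. Inhibitory cells had 54.2, 61.9 and 53.3 CPM, below excitatory neurons in 3 of 3 libraries (log2 fold change -0.93, SE 0.0451, edgeR adjusted p = 1.71e-18). CGE-type cells had 63.1 ± 3.05 CPM and MGE-type cells 47.3 ± 6.36 CPM, a log2 fold change of 0.42 (SE 0.101, edgeR adjusted p = 0.0016) that fell short of the fold threshold.

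Igfbp7 marked the vessel wall. Pericytes had 3176, 3419 and 3285 CPM, smooth muscle cells 2288, 2637 and 2448 CPM, and endothelial cells 1143, 1041 and 1082 CPM. No 2 of these classes overlapped, and pericytes exceeded endothelial cells 2.97-fold (log2 fold change 1.57, SE 0.0745, edgeR adjusted p = 9e-96). Excitatory neurons had 1.56, 1.37 and 1.65 CPM. Against them endothelial cells differed by 9.56 on the log2 scale (SE 0.0604, edgeR adjusted p = 4.97e-88) and pericytes by 10.86 (SE 0.0854, with an adjusted p too small to be represented). A UMI was read in 98.5% ± 1.28 of pericytes and 92.4% ± 0.360 of endothelial cells, against 2.96% ± 0.438 of the far deeper excitatory neurons (n = 3). In pericytes it averaged 7.54 UMIs per cell.

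Low Igfbp7 was also read in oligodendrocyte precursors (21.8 ± 3.07 CPM) and in inhibitory cells (7.03 ± 1.54 CPM), the latter 4.32-fold over excitatory neurons (log2 fold change 2.11, SE 0.200, edgeR adjusted p = 4.48e-11). In oligodendrocyte precursors Igfbp7 was read in 4.17% ± 0.327 of cells (n = 3), with up to 14 UMIs in a cell. Pericyte markers summed there to 124 to 148 CPM and endothelial markers to 48.6 to 61.6 CPM, against means of 16.3 and 8.29 CPM in excitatory neurons, and their part in that level was not tested. CGE-type cells had 9.70, 13.4 and 14.3 CPM, Vip cells 22.1 ± 4.68 CPM and MGE-type cells 2 UMIs in all, at 0.285 ± 0.493 CPM. The ratio of CGE-type to MGE-type cells had a log2 fold change of 5.30 (SE 0.517, edgeR adjusted p = 2.77e-09) and rests on that low MGE-type count. Endothelial markers summed to 12.3 to 14.9 CPM in CGE-type and 7.72 to 14.5 CPM in MGE-type cells, which overlap. Pericyte markers summed to 28.7 CPM in CGE-type and 6.77 CPM in MGE-type cells, with ranges that do not overlap, and their part in the Igfbp7 difference was not tested.

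Igfbp2 stood out in 1 neuronal subtype and 1 glial class. Astrocytes had 237, 176 and 233 CPM, and no other class that met the cell minimum had a mean over 12.6 CPM, the value of oligodendrocyte precursors. Among excitatory subtypes L2/3-Calb1 had 43.7, 56.5 and 47.9 CPM and the sorted library 23.6 CPM. The other 6 subtypes had means of 0.223 to 0.662 CPM, and the next one, L5-Bcl6, rests on 5 UMIs. Igfbp2 was read in 54.4% ± 5.00 of L2/3-Calb1 neurons (n = 3), with 0.943 UMIs per cell on average and at most 6. The astrocyte marker list, some of whose genes neurons also express, summed to 323 to 332 CPM in L2/3-Calb1 against 885 to 896 CPM in all excitatory neurons. Inhibitory cells held 11 Igfbp2 UMIs, all of them in CGE-type cells, and 0 were in MGE-type cells. Inhibitory cells were called lower than excitatory neurons as a whole (log2 fold change -1.90, SE 0.364, edgeR adjusted p = 3e-05). L2/3-Calb1 held 299 of the 386 excitatory UMIs. The inhibitory mean of 0.629 CPM lay within the range of means of the other 6 subtypes. Endothelial cells, with 7 UMIs, were not called (adjusted p = 0.0571), but were without unsorted replicate 3 (log2 fold change -2.32, adjusted p = 0.0184). Pericytes held 0 UMIs, and their floor of 4.76 CPM lies above the excitatory level.

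Igfbp3 was highest in oligodendrocyte precursors, with 67.6, 78.3 and 70.0 CPM, followed by inhibitory cells with 27.7, 30.8 and 28.9 CPM. Those ranges and the excitatory range of 18.0 to 19.3 CPM stood apart, and the log2 fold change of inhibitory over excitatory cells was 0.55 (SE 0.0745, edgeR adjusted p = 1.05e-07). MGE-type cells had 41.1 ± 5.45 CPM and CGE-type cells 20.8 ± 1.28 CPM, with no overlap (log2 fold change of CGE-type over MGE-type -0.98, SE 0.135, edgeR adjusted p = 1.13e-06). Among excitatory subtypes L6-Syt6 led with 25.8, 25.0 and 24.8 CPM, and 33.5 CPM in the sorted library. L5-Bcl6 (13.9 ± 0.924 CPM) and L6-Npy (13.6 ± 2.51 CPM) followed and overlapped, and L5-Htr2c was lowest at 5.01 ± 2.52 CPM. Endothelial cells had 13.0, 10.9 and 25.1 CPM, which overlapped excitatory neurons (log2 fold change -0.11, with 2 SE reaching from -0.41 to 0.19). Without unsorted replicate 3 that difference was called, at -0.58 (adjusted p = 0.00678). Pericytes, smooth muscle cells and border macrophages held 0 UMIs, and pericytes were at least 3.95-fold below excitatory neurons at their floor.

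Igfbp4 was highest in border macrophages, with 423, 592 and 556 CPM, and was read in 89.7% ± 9.24 of these 77 cells. Among excitatory subtypes it was a feature of L5-Bcl6, with 263, 251 and 237 CPM and 242 CPM in the sorted library. L6-Syt6 came next at 34.1 ± 0.436 CPM, then L2/3-Calb1 at 21.7 ± 2.56 CPM, and the ranges of these 3 subtypes did not overlap. The other 4 subtypes lay between 1.75 and 2.83 CPM and overlapped one another from neighbour to neighbour. A UMI was read in 84.6% ± 3.20 of L5-Bcl6 neurons, with 5.97 UMIs per cell on average and at most 32. In L6-Syt6 neurons the mean was 0.790 UMIs per cell and the 10% of cells with most UMIs held 57.7% of them. In CGE-type inhibitory cells the mean was 0.740 and that share was 78.0%, whereas for Igf1r in the same cells, at a mean of 0.802, it was 37.1%. Inhibitory cells had 73.8, 81.5 and 67.9 CPM, 2.21-fold over excitatory neurons (log2 fold change 1.15, SE 0.0562, edgeR adjusted p = 1.94e-18), with MGE-type cells at 95.8 ± 1.34 CPM and CGE-type cells at 57.6 ± 13.5 CPM (log2 fold change -0.73, SE 0.100, edgeR adjusted p = 1.13e-06). The means of the marker-defined groups ran the other way, with Vip cells at 114 ± 28.2 CPM and Sst cells at 77.8 ± 13.7 CPM. Their ranges overlapped.

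Igfbp5 was read in every excitatory and inhibitory group and was higher in inhibitory cells. Inhibitory cells had 124, 121 and 105 CPM and excitatory neurons 56.2, 55.1 and 54.7 CPM, without overlap (log2 fold change 0.99, SE 0.0474, edgeR adjusted p = 9.91e-19). MGE-type cells (143 ± 6.87 CPM) exceeded CGE-type cells (94.9 ± 10.4 CPM), a log2 fold change of CGE-type over MGE-type of -0.59 (SE 0.0720, edgeR adjusted p = 1.41e-07). Sst cells (171 ± 19.0 CPM) and Vip cells (159 ± 30.1 CPM) overlapped. The excitatory order ran from L2/3-Rorb (131, 119 and 119 CPM) and L2/3-Calb1 (112, 108 and 107 CPM) through L5-Bcl6 (67.1 ± 3.05 CPM) to L5-Htr2c (23.6 ± 3.80 CPM). The 2 upper-layer subtypes did not overlap each other or any deeper subtype, while L5-S100b (49.3 ± 4.47 CPM) and L6-Syt6 (48.4 ± 0.855 CPM) overlapped. Its convergent neighbour Igfbp2 held 3 UMIs in L2/3-Rorb, the subtype where Igfbp5 was highest.

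Igfbp6 differed widely among excitatory subtypes, and excitatory neurons as a whole stood above every other class. L2/3-Calb1 neurons had 438, 404 and 412 CPM and L6-Npy neurons 262, 269 and 290 CPM. L5-S100b (130 ± 3.69 CPM) and L2/3-Rorb (124 ± 3.77 CPM) overlapped, and L5-Bcl6 followed at 69.3 ± 8.08 CPM. L6-Syt6, the other large layer 6 subtype, had 16.7 ± 2.09 CPM and L5-Htr2c had 1.16 to 7.67 CPM, where unsorted replicate 2 held 11 of the 15 UMIs. A UMI was read in 96.8% ± 0.658 of L2/3-Calb1 neurons and 2.26% ± 0.751 of L5-Htr2c neurons (n = 3). In L5-Bcl6 the 10% of neurons with most UMIs held 56.0% of them at a mean of 1.65 UMIs per cell, against 27.2% for Igf1r at a mean of 1.75.

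Outside excitatory neurons Igfbp6 was low in every class. Inhibitory cells had 6.28, 4.75 and 5.78 CPM, 15.7-fold below excitatory neurons (log2 fold change -3.97, SE 0.0897, edgeR adjusted p = 6.6e-28). Endothelial cells had 16.9, 22.2 and 11.3 CPM (log2 fold change -2.22, SE 0.114, edgeR adjusted p = 3.62e-29) and pericytes a single UMI. The level in endothelial cells was 20.3% of that in excitatory neurons, and 5 marker genes of excitatory neurons stood at 20.9% of their excitatory level in the same cells. The same pair of values was 17.1% and 19.8% in oligodendrocyte precursors, 16.2% and 12.9% in oligodendrocytes and 6.76% and 7.73% in inhibitory cells. Igfbp6 stood further below the markers in astrocytes (12.4% and 20.9%), smooth muscle cells (12.2% and 17.7%), microglia (15.01% and 19.1%), border macrophages (2.84% and 6.24%) and pericytes (1.78% and 3.87%). Igfbp4 and Igfbp5 in endothelial cells were at 25.0% and 28.8% of their excitatory level (log2 fold changes -1.94, SE 0.162, edgeR adjusted p = 5.43e-18, and -1.72, SE 0.139, adjusted p = 1.28e-18). Pericytes held 4 UMIs of Igfbp4 and 4 of Igfbp5, and all 3 of these genes were called lower there than in excitatory neurons (edgeR adjusted p = 1.44e-05 for Igfbp4, 1.08e-11 for Igfbp5 and 3.47e-23 for Igfbp6). The part of stray neuronal RNA in these low levels was not tested. Pericytes differed from endothelial cells in Igfbp6 (log2 fold change -3.36, SE 0.971, edgeR adjusted p = 0.00184), but not past the threshold without unsorted replicate 2 (-2.58, adjusted p = 0.0622) or by DESeq2 (adjusted p = 0.0594).

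**Figure D3:**
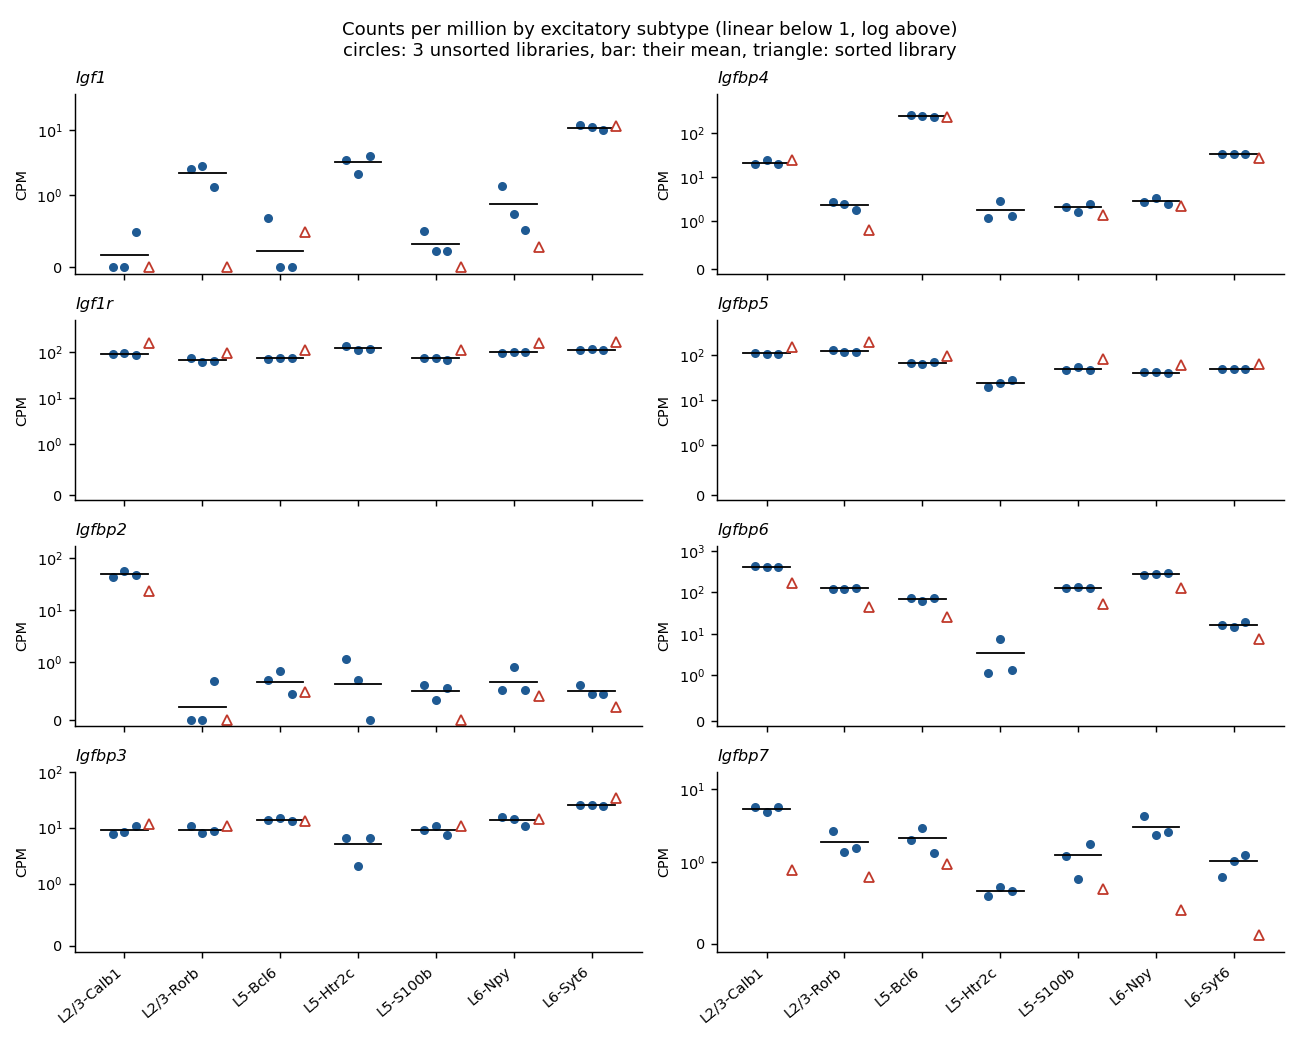
CPM of each gene (y axis, linear below 1 and logarithmic above) in the 7 excitatory subtypes (x axis), with circles for the 3 unsorted libraries, bars for their means and triangles for the sorted library, which had too few L5-Htr2c neurons. Igfbp4 peaks in L5-Bcl6, Igfbp2 and Igfbp6 in L2/3-Calb1 and Igf1 in L6-Syt6, with circles and triangles alike.

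Most members differed between the inhibitory groups. Of 7 members tested, Igf1, Igfbp6 and Igfbp7 were higher in CGE-type cells and Igfbp3, Igfbp4 and Igfbp5 were higher in MGE-type cells, which is 3 in each direction beside 11.1% and 10.4% of all genes tested. Igf1r was the member not called. For Igfbp4 the means of Vip and Sst cells ran the other way, higher in Vip cells, with overlapping ranges. Igfbp6 had 73 UMIs in CGE-type and 23 in MGE-type cells (log2 fold change 1.29, SE 0.322, edgeR adjusted p = 0.00217), and the call was lost by DESeq2 (adjusted p = 0.171). The excitatory marker list was also higher in CGE-type cells (166 to 186 CPM) than in MGE-type cells (117 to 133 CPM).

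**Figure D4:**
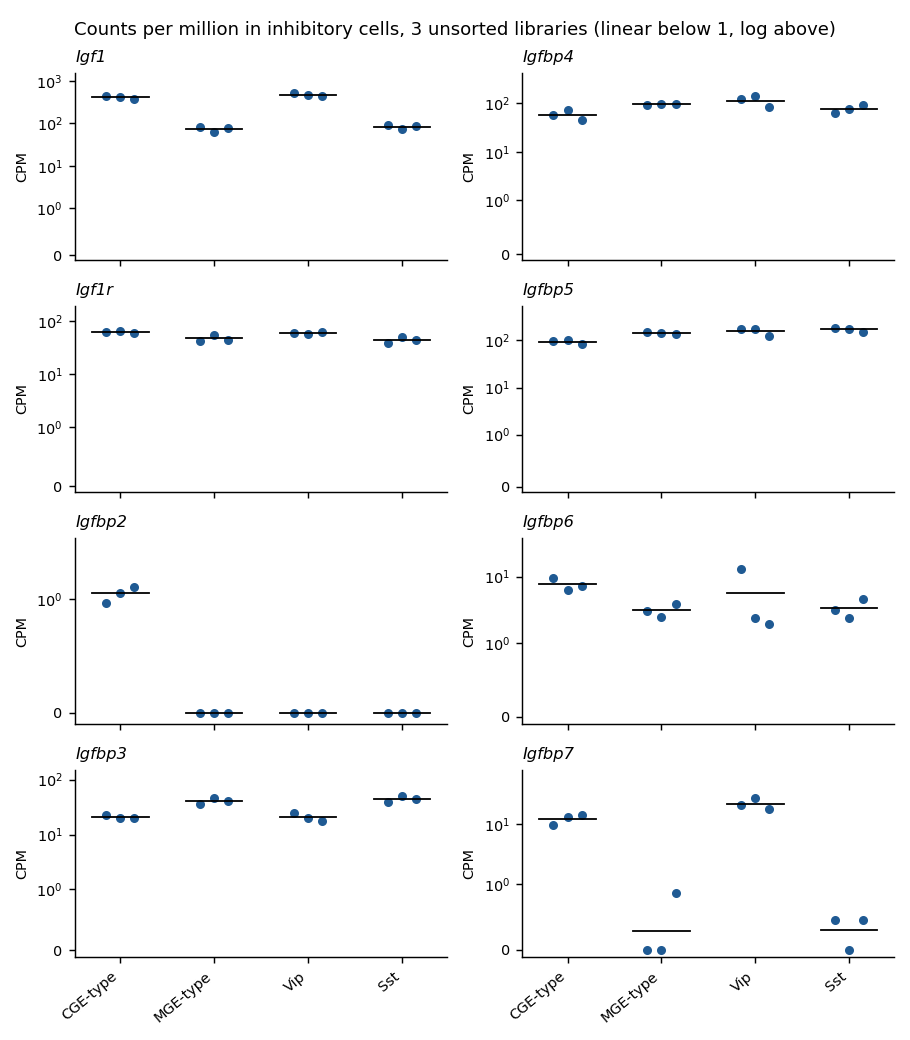
CPM of each gene (y axis, linear below 1 and logarithmic above) in CGE-type, MGE-type, Vip and Sst inhibitory cells (x axis), with points for the 3 unsorted libraries and bars for their means. Igf1 and Igfbp7 are higher in CGE-type and Vip cells, and Igfbp3 in MGE-type and Sst cells. Igfbp4 is higher in MGE-type than CGE-type cells, but its mean is higher in Vip than in Sst cells, which overlap.

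Other genes of the pathway were counted from a list of 26, covering the remaining ligands and receptors, binding protein proteases and their inhibitors, and the signalling chain to Foxo. In endothelial cells 19 were tested, of which 9 were higher and 5 lower than in excitatory neurons, beside 30.4% and 34.5% of all genes. Their median log2 fold change was 0.26 against -0.13 over all genes. Htra1, a secreted protease that cleaves binding proteins, stood at 47.9 ± 15.6 CPM against 0.436 ± 0.108 CPM, and Foxo1, the transcription factor restrained by Akt, at 119 ± 2.75 against 7.70 ± 0.367 CPM. In pericytes 11 of 19 were higher and 1 lower, beside 19.1% and 29.9% of all genes (median 0.95 against -0.51). Stc1, a stanniocalcin that inhibits the pappalysin proteases, had 86.2 ± 15.9 CPM there and 8.19 ± 0.882 CPM in endothelial cells (log2 fold change 3.34, SE 0.334, edgeR adjusted p = 1.94e-22). Between those vessel cells 10 of 18 tested were higher in pericytes and 4 lower, beside 16% and 24.6% of all genes (median 0.72 against -0.08). Lrp1, an endocytic receptor, led at 376 ± 68.0 against 31.2 ± 2.96 CPM.

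Inhibitory cells had 9 of 23 tested pathway genes higher than excitatory neurons and 3 lower, beside 19% and 20% of all genes (median 0.35 against -0.01). Irs4, an insulin receptor substrate, had 5 UMIs in all excitatory neurons and 90 in inhibitory cells (log2 fold change 7.22, SE 0.401, edgeR adjusted p = 5.79e-17). Irs4 stood at 10.5 ± 1.91 CPM in MGE-type and 1.00 ± 0.894 CPM in CGE-type cells, opposite to Igf1, while Foxo1 stood at 9.89 ± 0.169 CPM in CGE-type and 0.949 ± 0.471 CPM in MGE-type cells. In that comparison 8 of 18 tested pathway genes were higher in CGE-type cells and 1 lower, beside 11.1% and 10.4% of all genes (median 0.31 against 0.007).

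The sorted library gave a further view of the 6 subtypes with at least 10 sorted neurons. Igf1r lay above all 3 unsorted libraries in 6 of 6 subtypes, at 1.46 to 1.78 times their mean, and Igfbp5 in 6 of 6, at 1.28 to 1.63 times. Igfbp6 lay below them in 6 of 6, at 0.348 to 0.453 times, and Igfbp7 in 6 of 6, at 0.107 to 0.530 times. The Igfbp7 ratios rest on only 1 to 7 sorted UMIs per subtype, those of Igfbp6 on 53 to 897. Igfbp6 in L2/3-Calb1 was 171 CPM in the sorted library against 404 to 438 CPM, and in L6-Npy 124 CPM against 262 to 290 CPM. Of 12884 genes with at least 1 CPM in unsorted excitatory neurons, 20.8% were above and 11.7% below in all 6 subtypes, so such shifts were common. The order of Igfbp6 from L2/3-Calb1 through L6-Npy to L6-Syt6 was the same in the sorted library. Igfbp4 in L5-Bcl6 was within the unsorted range, but Igfbp4 lay below it in 4 of 6 subtypes. In L6-Syt6 it was 27.2 CPM against 33.7 to 34.6 CPM. Igfbp2 lay below in 4 of 6 and Igf1 in 3 of 6, mostly at few UMIs, and Igfbp3 above in 3 of 6. Sorting, pooling of mice and library cannot be told apart, and with 1 sorted library there is no test. Beside the Igfbp7 values, endothelial markers summed to 7.59 to 8.69 CPM in unsorted excitatory neurons and to 5.02 CPM in sorted ones. Pericyte markers summed to 15.6 to 16.9 CPM in the unsorted and 10.7 CPM in the sorted neurons, and the part of either was not tested.

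Within a subtype, neurons with at least 5 UMIs of the viral barcode feature (barcode-high) were set against those with 0 (barcode-zero), to ask whether retrogradely marked neurons differ in these genes. A neuron with 0 barcode UMIs in the transcriptome library may still carry virus, and the feature pools the 5 targets. In L6-Syt6, 1635 barcode-high and 2327 barcode-zero neurons from 4 libraries were compared, and 0 of 7 members tested were called (3 at an unadjusted p under 0.05), beside 1.67% of all genes. In L5-S100b, 958 and 195 neurons gave 0 of 4 (4 unadjusted) beside 2.7%, and in L6-Npy 535 and 232 neurons gave 0 of 4 (1 unadjusted) beside 0.801%. L2/3-Rorb gave 0 of 4 (0 unadjusted) beside 0.139%, L2/3-Calb1 0 of 5 (2 unadjusted) beside 0.18% and L5-Bcl6 0 of 5 (0 unadjusted) beside 0.0686%. The last 2 rest on the 3 unsorted libraries. DESeq2 also called 0 members in each. Barcode-high neurons were deeper than barcode-zero neurons in every library used, for example with medians of 24582 to 38604 against 21684 to 30097 UMIs in L6-Syt6.

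**Figure D5:**
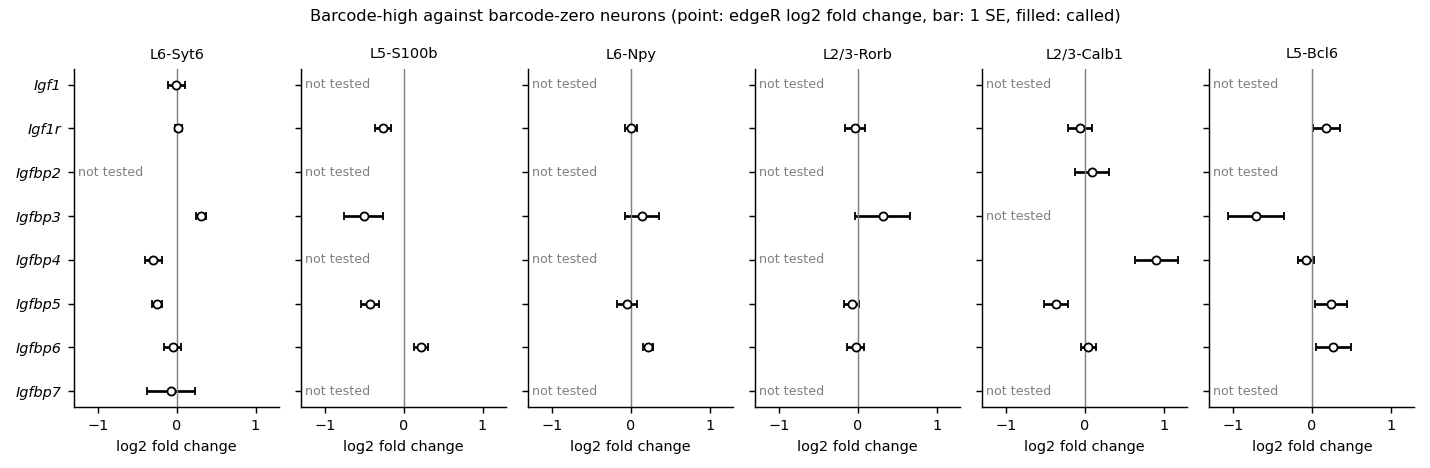
The edgeR log2 fold change of each gene (x axis) between barcode-high and barcode-zero neurons in 6 excitatory subtypes, with bars of 1 SE over 4 libraries (3 for L2/3-Calb1 and L5-Bcl6) and open points because none was called. Igf1 in L6-Syt6 sits at 0.00 with an SE of 0.106.

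Igfbp3 and Igfbp5 passed the p threshold in a subtype without reaching the fold threshold. In L6-Syt6 Igfbp3 was 29.1, 28.0 and 28.5 CPM in unsorted and 35.5 CPM in sorted barcode-high neurons, against 24.6, 24.4 and 22.7 CPM and 27.5 CPM in barcode-zero neurons. It was higher in 4 of 4 libraries and did not overlap, but its log2 fold change of 0.31 (SE 0.0603, edgeR adjusted p = 0.0185) is under the fold threshold. Igfbp5 was lower in barcode-high neurons in 4 of 4 libraries of L6-Syt6 (log2 fold change -0.25, SE 0.0613, edgeR adjusted p = 0.0423) and of L5-S100b (-0.43, SE 0.114, adjusted p = 0.0168). In L5-S100b its barcode-high values were 38.2, 51.4, 45.5 and, in the sorted library, 80.5 CPM, against 67.5, 76.7, 60.0 and 83.4 CPM, and the groups overlapped through the sorted library. Without the sorted replicate that difference passed both thresholds, at -0.58 (adjusted p = 0.00131). Igfbp6 in L6-Npy was 280, 280 and 300 CPM in unsorted and 125 CPM in sorted barcode-high neurons, against 229, 249 and 253 CPM and 117 CPM. It was higher in 4 of 4 libraries, at a log2 fold change of 0.22 (SE 0.0605, edgeR adjusted p = 0.0557). Igfbp4 in L2/3-Calb1 was 34.0, 40.3 and 27.7 CPM against 16.4, 19.7 and 18.1 CPM, without overlap, at a log2 fold change of 0.91 (SE 0.273, edgeR adjusted p = 0.341).

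Igf1 in L6-Syt6 did not differ past the threshold, at 9.87 to 12.3 CPM in barcode-high and 9.29 to 13.0 CPM in barcode-zero neurons of 4 libraries (2 SE on either side of the log2 fold change reach from -0.22 to 0.21). Igfbp4 in L5-Bcl6 was 262 ± 10.9 against 275 ± 43.1 CPM over 3 libraries (-0.27 to 0.12 by the same measure). The barcode effect itself was compared between L5-S100b and L6-Syt6 by an interaction term, which called 0 of 6 members (2 at an unadjusted p under 0.05), beside 3.01% of all genes. Igfbp3 came closest, with a difference of -0.82 on the log2 scale (SE 0.240, edgeR adjusted p = 0.0515), and passed with RLE size factors (adjusted p = 0.0491) and by DESeq2 (adjusted p = 0.0418). The same term called 0 of 16 tested pathway genes higher and 2 lower, Grb14 (-0.92, SE 0.209, edgeR adjusted p = 0.0109) and Grb10 (-0.54, SE 0.143, adjusted p = 0.0307). Among pathway genes only L5-S100b had calls within a subtype, 3 of 16 tested beside the 2.7% of all genes, with Foxo1 higher in barcode-high neurons (29.8 ± 5.50 against 15.3 ± 5.56 CPM, higher in 4 of 4 libraries). Grb14 (12.6 ± 1.93 against 21.4 ± 6.63 CPM) and Grb10 (31.1 ± 5.43 against 44.8 ± 7.32 CPM), adaptors that bind the activated receptors, were lower in 4 of 4 libraries.

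Across 17 cell groups the genes whose levels ran closest to each member were sought among 11726 genes reaching 20 CPM in some group, by Pearson's r of log2(CPM + 1). Igfbp7 was closest to Tm4sf1 (r = 0.976) and Itga1 (r = 0.971), and Igf1r to Nos3 (r = 0.930) and Abcb1a (r = 0.904), both expressed by brain endothelium. Igfbp6 was closest to Slc26a4 (r = 0.949) and Igfbp5 to Gm14419 (r = 0.948). Igfbp3 was closest to Sstr1, a somatostatin receptor (r = 0.903), Igfbp2 to Chrdl1, a BMP antagonist (r = 0.890), and Igf1 to Dlx1as, transcribed beside the interneuron factor Dlx1 (r = 0.865). Igfbp4, with peaks in border macrophages and L5-Bcl6, had the weakest best partner, Rab8b (r = 0.712). The groups come from the same 3 libraries, so these values describe likeness only.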

How the data were processed

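The members and gene lists were chosen with earlier results of these data known. The deposited matrices hold raw UMI counts per gene and cell (10x Genomics), aligned by the authors with Cell Ranger to mm10 with the viral barcodes added. The authors' metadata table gives subtype labels, counts per cell and percent mitochondrial UMIs, from Seurat 3.1.4 and Scanpy per the labels. For each library, UMI counts were added up over the cells of a group. Cells outside the authors' table needed 500 to 8000 genes, 1000 to 60000 UMIs and under 20 percent mitochondrial UMIs, and were classed by marker UMIs: Cldn5 and Flt1 (at least 4), Kcnj8 and Abcc9 (at least 3), Gad1 and Gad2 (at least 4, with at most 3 of Slc17a7) and similar pairs for 7 further classes. Cells meeting several rules (0 to 310 per library) or none (110 to 256) were left out, and no doublet caller was run. A sum needed 10 cells. Library totals were 54728191 to 87809114 UMIs.

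Groups were compared across all genes by edgeR 4.0.16 in R 4.3.3 (TMM, filterByExpr, quasi-likelihood test, library as block), with DESeq2 1.42.0, other scaling, filters and marker minimums, and each library left out as alternatives. The block is the mouse (or pool) that both groups came from. With that block, p-values rest on how the group difference varied over libraries and on counting error, with dispersion moderated over all genes. The script was tested on simulated counts. All 8 members were named in every comparison, and up to 3 called pathway genes. Exact binomial intervals and floors of 3 counts cover counting error only. Protein sequences were not used here.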

Additional observations from a re-analysis of the deposited data

Results flagged for a closer look

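A small group that entered no comparison held the most Igfbp2 per cell of any class. Only 7 unsorted cells (1, 2 and 4 per library) met the fibroblast rule on Col1a1 and Lum, too few for a level. They averaged 15.6 Igfbp2 UMIs, from 6 to 25 in each cell, and 7 of 7 had at least 1 (exact 95% interval 59.0% to 100%). The astrocyte mean was 0.893. Of the independent fibroblast markers, Dcn, Col1a2 and Slc6a13 were also read in 7 of 7 and Col3a1 in 5. That list summed to 10958 CPM in these cells. Next came the lists of pericytes (3009 CPM), astrocytes (1415 CPM) and endothelial cells (1298 CPM). Igfbp4 averaged 2.43 UMIs in these cells and was read in 6 of them. The difference was not tested.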

How the results depend on the processing

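The 5 comparisons of cell groups kept their number of called genes within 1.5 times under 46 of 48 alternatives. The exceptions were DESeq2 for pericytes against endothelial cells (2671 genes against 4229) and for CGE-type against MGE-type cells (1576 against 2444). Over 661 refits of single members, 0 reversed, 10 lost their call and 7 gained one. Those that lost it were Igf1 in vessel cells, which has few UMIs, Igfbp6 between vessel cells and between inhibitory groups, and Igfbp3 in inhibitory cells with no low-count filter (log2 fold change 0.50). The highest class of all 8 members was the same under every alternative run, and the highest subtype changed for 1 member, Igf1r, without unsorted replicate 1. Doubling the marker minimum moved Igf1r in endothelial cells to 1175 CPM. Thinning to 1000 UMIs left the class with the highest share of cells the same for all 8, but without thinning, an alternative chosen after seeing the data, it was the same for only 4.

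The barcode comparisons called few genes and depended on the settings. Without the replicate block, that is without pairing groups by library, calls were 75 in L6-Syt6, 56 in L5-S100b, 0 in L6-Npy (406 unadjusted), 0 in L2/3-Rorb (285 unadjusted), 1 in L5-Bcl6 and 76 for the difference between L5-S100b and L6-Syt6, and dropping the block changed no call of a member. DESeq2 called 142 in L5-S100b, 11 in L6-Npy, 0 in L2/3-Rorb (132 unadjusted), 2 in L2/3-Calb1 and 0 in L5-Bcl6 (46 unadjusted). Defining barcode-positive at 1 UMI gave 27 in L6-Syt6, 202 in L5-S100b, 31 in L6-Npy, 6 in L2/3-Rorb, 4 in L2/3-Calb1, 0 in L5-Bcl6 (573 unadjusted) and 171 for the difference. With no low-count filter, L2/3-Rorb had 28, L2/3-Calb1 32 and L5-Bcl6 22 calls, and RLE scaling left L5-Bcl6 with 0 (574 unadjusted). Against 218, 310, 83, 14, 15, 6 and 386 calls with the reported settings, in the order of subtypes used next, leaving out a library gave 28 to 309 calls in L6-Syt6 (28 without unsorted 2, 78 without 1 and 77 without 3), 178 to 289 in L5-S100b (178 without unsorted 2), 45 to 75 in L6-Npy (45 without unsorted 3), 2 to 33 in L2/3-Rorb (2 without unsorted 1, 33 without 2), 12 to 26 in L2/3-Calb1 (26 without unsorted 3), 4 to 31 in L5-Bcl6 (31 without unsorted 3) and 186 to 515 for the difference (186 without unsorted 2, 201 without 1). The causes were not tested. Depth limits low levels in small classes, where 0 UMIs allow up to 4.76 CPM in pericytes.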
